A study of Drosophila melanogaster with 2 samples.

Results

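The genes described here are 37 listed genes of chromosome segregation and cytokinesis in Drosophila melanogaster, out of 14284 genes in the count tables. They cover the mitotic kinases, the chromosomal passenger complex, the spindle assembly checkpoint, separase and securin, the kinetochore, condensin with topoisomerase II, spindle motors and the cytokinetic machinery. They were taken by gene symbol, and cyclins and their kinases were not part of the list. Of the 37 genes, 36 had counts in both libraries, and cana was at 0 in both.

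The study set brat RNAi against control in type II lineages of the larval brain, the neural stem cells (neuroblasts) and their young progeny, with 1 polyA RNA-seq library for each. The brat RNAi library came from larvae late in the third instar that carried a brat hairpin (VDRC TID 105054), and the control library came from larvae without it. Both crosses had UAS-dicer2, tub-Gal80ts, the UAS-CD8::GFP membrane marker, and the drivers written in the labels as wor-Gal4 and asense-Gal4. Both were reared at 18 °C, moved to 29 °C and dissected 24 h later, and the GFP-positive neuroblasts and their 24 h progeny were sorted by flow cytometry. Worniu is expressed in neuroblasts of both types and Asense is absent from type II neuroblasts, so these drivers, as written, would not restrict GFP to type II lineages. The cells are called type II here on the labels alone. The labels do not say how many animals were pooled. With 1 library per group there is no replicate check and no test, and every interval below covers counting error only.

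A dividing cell condenses its chromosomes, builds a bipolar spindle, attaches each sister kinetochore to microtubules and then divides. The Polo and Aurora kinases drive entry and error correction, the checkpoint holds the anaphase-promoting complex (APC/C) until every kinetochore is attached, and separase then cleaves cohesin. Type II neuroblasts divide asymmetrically many times and feed intermediate progenitors that divide again. Brat is a TRIM-NHL protein that represses translation, and lineages without it form tumours of neuroblast-like cells.

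Raw gene counts summed to 15236504 in the brat RNAi library and 16566265 in the control library. The targeted gene, brat, had 6312 raw counts in the brat RNAi library and 12210 in the control library, in the direction of the labels. Unless called raw, levels below are normalised counts, which are raw counts divided by a size factor of 0.913 for the brat RNAi library and 1.09 for the control library. The log2 ratio is always brat RNAi over control, with a 95% exact counting interval in parentheses. Genes with raw counts that sum to at least 20 are called measured, 9142 in all. Of the marker lists, all 8 neuroblast genes were measured, with a median log2 ratio of 0.45 and 7 of 8 above 0. Among them, dpn, mira and wor had 3740, 32542 and 5644 normalised counts in the brat RNAi library and 1901, 24012 and 4155 in the control library. The gene ase went the other way, with 1353 in the brat RNAi library and 1635 in the control library. The summed normalised counts of 6 female germline and yolk markers were 35.04 in the brat RNAi library and 2486 in the control library. Among them, osk was at 0 in the brat RNAi library. The yolk protein genes Yp1 and Yp2, which somatic cells express, had 10.9 and 3.28 in the brat RNAi library and 867 and 480 in the control library. The 6 muscle markers summed to 175 in the brat RNAi library and 413 in the control library. The neuron markers summed to 4875 normalised counts in the brat RNAi library and 4834 in the control library. The glial markers summed to 10753 and 10382, and the hemocyte markers to 7910 and 5846. In the same order, the median log2 ratios were 0.12, -0.09 and 0.09, with 4 of 7, 2 of 6 and 3 of 5 genes above 0. The glial sum came mostly from Eaat1 and nrv2, at 0.18 and -0.15. The hemocyte sum came mostly from Hml and Pxn, at 0.48 and 0.41, while NimC1 and He stood at -0.32 and -1.32. Germline cells also use the mitotic machinery, and the part of these other cells in the ratios below was not tested. In sorted bulk cells, a larger share of dividing cells and more RNA per dividing cell cannot be told apart.

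Most of the mitotic genes had slightly more RNA in the brat RNAi library. Their summed raw counts were 176077, or 1.16% of gene counts, in the brat RNAi library, and 166595, or 1.01%, in the control library. The median log2 ratio of the 36 genes was 0.29, within a range of -0.31 to 0.75, against 0.00 over all measured genes. Genes with sums of at least 200 had a median of 0.06. Of the 36 genes, 30 were above 0 (83.3%), against 50.4% of all measured genes and 56.7% of those with sums of at least 200. The counting interval lay wholly above 0 for 27 of the 36 genes, against 30.7% of all measured genes, and wholly below 0 for 4, against 24.3%. The 36 genes are well counted, with raw sums of at least 596, and among genes with sums of at least 200 the interval lay above 0 for 39.5% and below 0 for 24.2%. None of the 36 was 2-fold higher or 2-fold lower, against backgrounds of 1.15% and 4.48%. At the smaller fold of 1.5, 6 genes were higher (16.7%), against 5.93% of all measured genes and 6.35% of those with sums of at least 200. These were scra, feo, Cenp-C, Mis12, msps and mars. With total count scaling 1 of the 36 genes was 1.5-fold higher, against 2.89% of all measured genes, and with upper quartile scaling 1, against 2.6%, so that the share is then near the background. None was 1.5-fold lower, against 8.32% of all measured genes and 3.2% of those with sums of at least 200. In the authors' deposited table the adjusted p-value was 1 for each of the 36 genes, in a comparison of 1 library with 1.

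**Figure D1:**
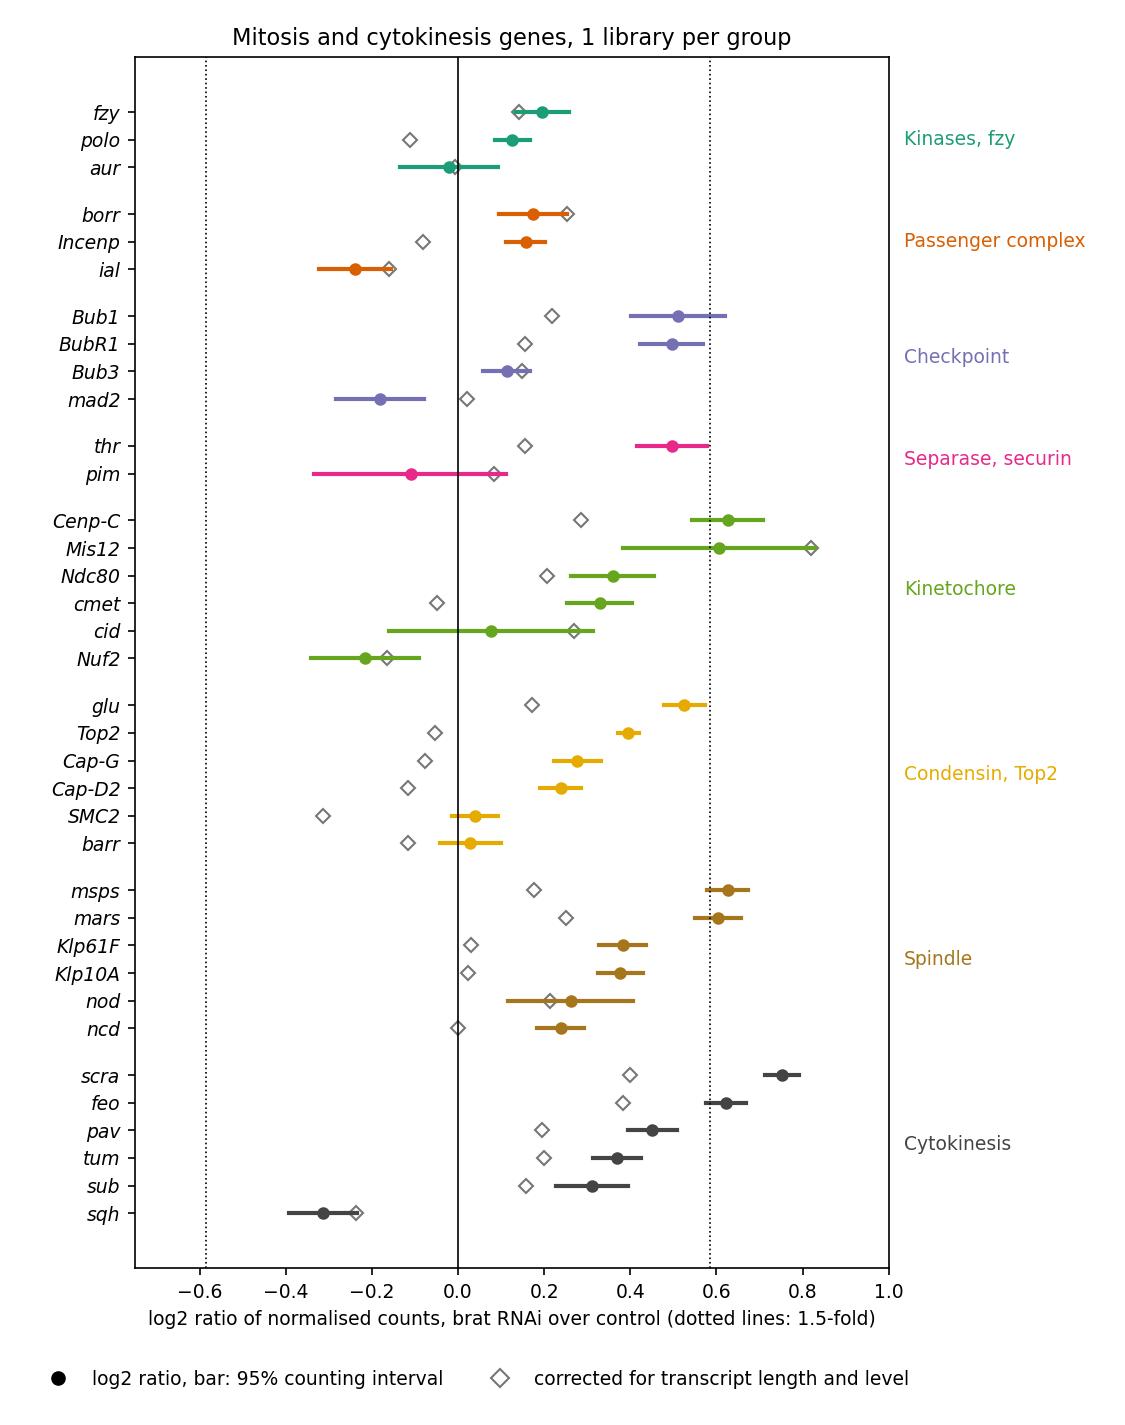
Log2 ratio of normalised counts, brat RNAi over control, for the 36 genes with counts, grouped by function. Filled points with bars are ratios with 95% counting intervals, open diamonds are ratios corrected for transcript length and level, and dotted lines mark 1.5-fold. Ratios run from -0.31 for sqh to 0.75 for scra, and most open diamonds lie closer to 0 than the filled points.

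Transcript length has to be set beside these ratios, because the ratio followed length in the whole data set. Over 9075 measured genes with a finite ratio and a length, Spearman's rho between ratio and median transcript length was 0.40, and over the 36 mitotic genes it was 0.63. These are correlations across genes of the same 2 libraries, given as a description. The median log2 ratio was -0.23 in the shortest decile of all genes and 0.32 in the longest. The 18 mitotic genes with the longer transcripts (2652 to 7455 nt) were all above 0, with a median of 0.42. Of the 18 with the shorter transcripts (818 to 2595 nt), 12 were above 0, with a median of 0.17. Measured genes were binned by decile of transcript length crossed with decile of mean level. Subtracting the median of its bin from each ratio left a median of 0.14 over the 36 genes. Of the 36, 23 were then above 0, against 4499 of all 9075 corrected genes. After that correction the interval lay above 0 for 19 of the 36 genes and below 0 for 10, against 24.5% and 23.4% of all corrected genes. After correction 1 gene, Mis12, was 1.5-fold higher, against a background of 5.3%, and none was 1.5-fold lower (background 4.68%), 2-fold higher (1.99%) or 2-fold lower (2.45%). Among the 6745 corrected genes with sums of at least 200, the interval lay above 0 for 1957 and below 0 for 1809. Of these 6745 genes, 235 were 1.5-fold higher, 132 1.5-fold lower, 35 2-fold higher and 28 2-fold lower. Corrected values are therefore given below for each single gene whose ratio is printed, where the gene has one. The correction also takes away any difference that genes of 1 length and level share.

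**Figure D2:**
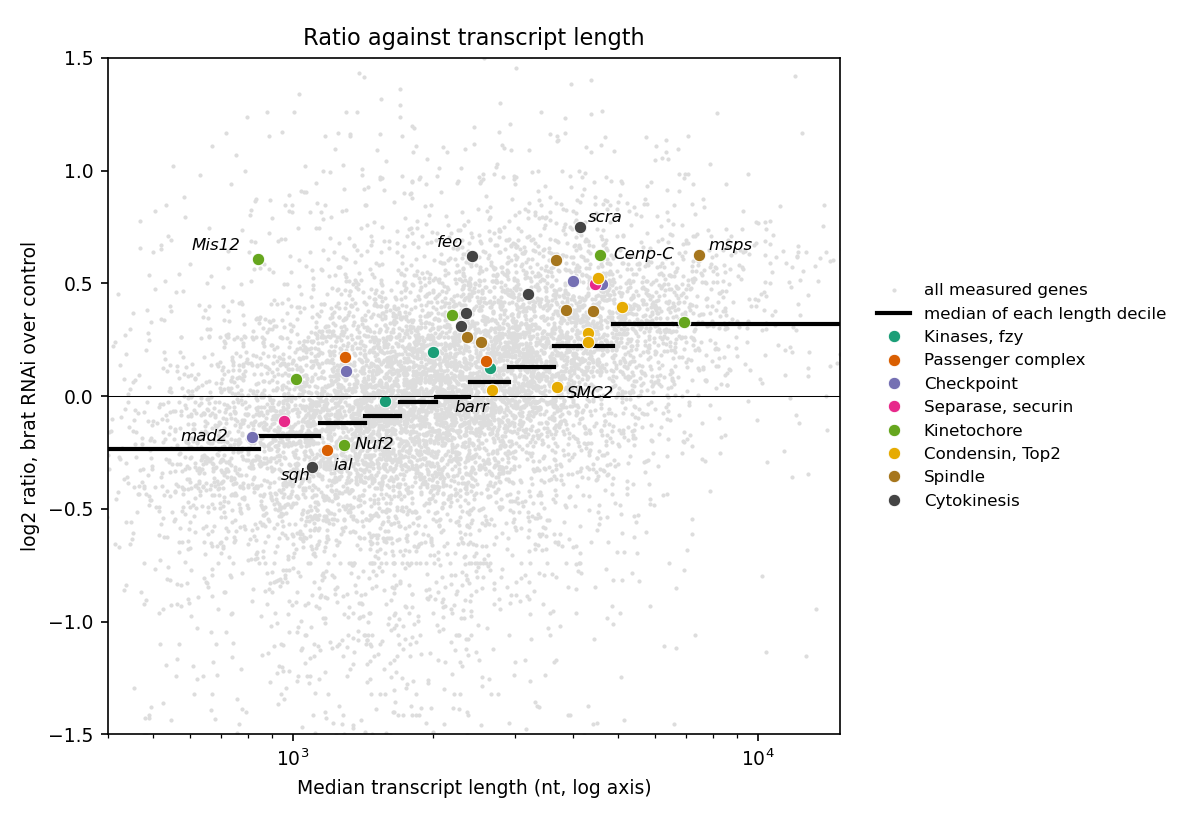
Log2 ratio, brat RNAi over control, against median transcript length on a log axis. Grey points are all measured genes within the plotted range, black bars the median of each length decile (the longest runs past the axis), and coloured points the mitotic genes by function. The decile medians climb from -0.23 to 0.32, and Mis12 and feo stand furthest above the bar at their length while SMC2 lies furthest below its own.

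The kinases that start mitosis were nearly level. Polo kinase (polo), which acts from mitotic entry to cytokinesis, had 10181 normalised counts in the brat RNAi library and 9329 in the control library, a log2 ratio of 0.13 (0.09 to 0.17). Aurora A (aur), the centrosomal kinase of spindle assembly, had 1268 in the brat RNAi library and 1286 in the control library, a ratio of -0.02 (-0.13 to 0.09) whose interval holds 0. Fizzy (fzy), the Cdc20 protein that activates the APC/C, had 4522 in the brat RNAi library and 3948 in the control library, at 0.20 (0.13 to 0.26). Both genes with an interval above 0 lay under 1.2-fold, and the sign of polo turned under other settings, at -0.01 with total count scaling, -0.04 with upper quartile scaling and -0.11 after correction. Corrected, fzy was at 0.14 and aur at -0.01. Per kb of transcript, polo was the most abundant of the 3, with 3839 normalised counts in the brat RNAi library and 3518 in the control library, and aur the least, with 804 and 815.

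The chromosomal passenger complex carries Aurora B to centromeres and later to the central spindle, and its subunits were split. The scaffold Incenp had 8152 normalised counts in the brat RNAi library and 7313 in the control library, at 0.16 (0.11 to 0.20). Borealin (borr), which helps to target the complex to chromatin, had 2722 in the brat RNAi library and 2412 in the control library, at 0.17 (0.09 to 0.25). Aurora B itself (ial) was on the other side of 0, with 2213 in the brat RNAi library and 2611 in the control library, at -0.24 (-0.32 to -0.16). The gap between borr and ial was 0.41 (0.30 to 0.53) on the log2 scale. The transcripts of these 2 genes are of similar length, 1292 and 1183 nt, and both fall in the same bin, so the correction leaves this gap as it is. Incenp lies in a longer class, and its gap to ial was 0.40 (0.30 to 0.49) before correction and 0.08 after it. Corrected, Incenp was at -0.08, borr at 0.25 and ial at -0.16, and Incenp was also at -0.01 with upper quartile scaling.

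In the spindle assembly checkpoint, the BUB-family genes with long transcripts stood above the other genes. Bub1, a kinetochore kinase, had 1630 normalised counts in the brat RNAi library and 1144 in the control library, at 0.51 (0.40 to 0.62). BubR1, which binds and inhibits the APC/C activator, had 3585 in the brat RNAi library and 2541 in the control library, at 0.50 (0.42 to 0.57). Bub3, the WD40 partner of both, had 5620 in the brat RNAi library and 5198 in the control library, at 0.11 (0.06 to 0.17), and its sign turned to -0.03 with total count scaling and -0.05 with upper quartile scaling. The inhibitor mad2 was lower, with 1482 in the brat RNAi library and 1682 in the control library, at -0.18 (-0.28 to -0.08). Exons of Bub3 and mad2 overlap another gene on the opposite strand in the current annotation, ppk19 for Bub3 and kri for mad2. Median transcript length was 3998 nt for Bub1, 4626 nt for BubR1, 1299 nt for Bub3 and 818 nt for mad2. Corrected values were 0.22 for Bub1, 0.16 for BubR1, 0.15 for Bub3 and 0.02 for mad2, so that all 4 lay above 0 and the gap between BubR1 and mad2 went down to 0.13, against 0.68 (0.55 to 0.80) uncorrected. Per kb, Bub3 was far above its partners, with 4326 normalised counts in the brat RNAi library and 4001 in the control library, where Bub1 had 408 and 286.

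The separase subunit gene thr and the gene of the separase inhibitor differed in the same way. The gene thr encodes a subunit of separase, which opens cohesin rings at anaphase. It had 2988 normalised counts in the brat RNAi library and 2117 in the control library, at 0.50 (0.42 to 0.58). The protease itself is the product of Sse, from the list of other condensin and cohesin genes. Sse was level, with 353 normalised counts in the brat RNAi library and 352 in the control library. Its log2 ratio was 0.00 (-0.21 to 0.22), and 0.05 after correction. Pimples (pim), the securin that holds separase inactive, had 324 in the brat RNAi library and 350 in the control library, at -0.11 (-0.33 to 0.11). The gap of 0.61 (0.37 to 0.84) between thr and pim fell to 0.07 after correction, with thr at 0.16 and pim at 0.08. Exons of thr overlap CG14490 on the opposite strand in the current annotation.

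The kinetochore genes were widely spread. Cenp-C, the inner kinetochore protein that bridges the centromere to the outer complexes, had 2939 normalised counts in the brat RNAi library and 1904 in the control library, at 0.63 (0.54 to 0.71). Mis12, a subunit of the linker complex bound by Cenp-C, had 413 in the brat RNAi library and 271 in the control library, at 0.61 (0.38 to 0.83). Mis12 had one of the shortest transcripts, 839 nt, in a class where the median gene was at -0.21, so its corrected value was 0.82. Cenp-C was at 0.28 after correction. The centromeric histone H3 variant cid was at 0.08 (-0.16 to 0.31), with 305.5 in the brat RNAi library and 289.5 in the control library, and below 0 with total count scaling (-0.06) and upper quartile scaling (-0.09). It had the lowest level per kb of the 36 genes in both libraries (301 and 285).

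The microtubule-binding end of the kinetochore was divided. Ndc80, which grips microtubules, had 1966 normalised counts in the brat RNAi library and 1534 in the control library, at 0.36 (0.26 to 0.46). Nuf2, its obligate coiled-coil partner, had 977 in the brat RNAi library and 1134 in the control library, at -0.22 (-0.34 to -0.09). The gap between these partners was 0.57 (0.42 to 0.73), and 0.37 after correction, with Ndc80 at 0.21 and Nuf2 at -0.16. The exons of Nuf2 overlap those of Sem1 on the other strand in the current annotation. Per kb, Ndc80 was 1.18 times as abundant as Nuf2 in the brat RNAi library and 0.793 times as abundant in the control library. Spc25, from the list of other kinetochore genes and another subunit of the same complex, had the lowest ratio of that list at -0.40 (-0.58 to -0.22). It had 442 normalised counts in the brat RNAi library and 583 in the control library, and was at -0.29 after correction. The CENP-E kinesin cmet had 3172 normalised counts in the brat RNAi library and 2525 in the control library, at 0.33 (0.25 to 0.40) and at -0.05 after correction. Its relative cana, the next gene along the chromosome in the current annotation, had no count in either library. This allows up to 3 counts in each only if reads of cana could be assigned to it, which was not tested.

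Condensin, the ring complex that compacts mitotic chromosomes, did not move as a unit. Gluon (glu), the Smc4 ATPase, had 8780 normalised counts in the brat RNAi library and 6100 in the control library, at 0.53 (0.48 to 0.57). SMC2, the other ATPase of the pair, had 5651 in the brat RNAi library and 5497 in the control library, at 0.04 (-0.01 to 0.09). The gap between them was 0.49 (0.41 to 0.56) on the log2 scale, and since both fall in the same bin the correction leaves it unchanged. The exons of glu overlap those of Nubp1 on the other strand in the current annotation, and the strand setting of the counting is not given in the sources used here.

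The HEAT-repeat subunits of condensin lay between the ATPases. Cap-G had 5935 normalised counts in the brat RNAi library and 4897 in the control library, at 0.28 (0.22 to 0.33). Cap-D2 had 8025 in the brat RNAi library and 6805 in the control library, at 0.24 (0.19 to 0.28), and the gap between Cap-G and Cap-D2 was within counting error at -0.04 (-0.11 to 0.03). Barren (barr), the kleisin that closes the ring, had 3287 in the brat RNAi library and 3222 in the control library, at 0.03 (-0.04 to 0.10). Topoisomerase II (Top2), which untangles sister chromatids, was the most abundant of the 36 genes per kb, with 6206 normalised counts in the brat RNAi library and 4717 in the control library. Its log2 ratio was 0.40 (0.37 to 0.42) before correction and -0.05 after it. All 6 genes of this group were above 0, but after correction glu alone was, at 0.17, while SMC2 was at -0.31. Cap-G, Cap-D2 and barr were then at -0.08, -0.12 and -0.12. With total count and upper quartile scaling SMC2 and barr were below 0 too, between -0.14 and -0.10.

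**Figure D3:**
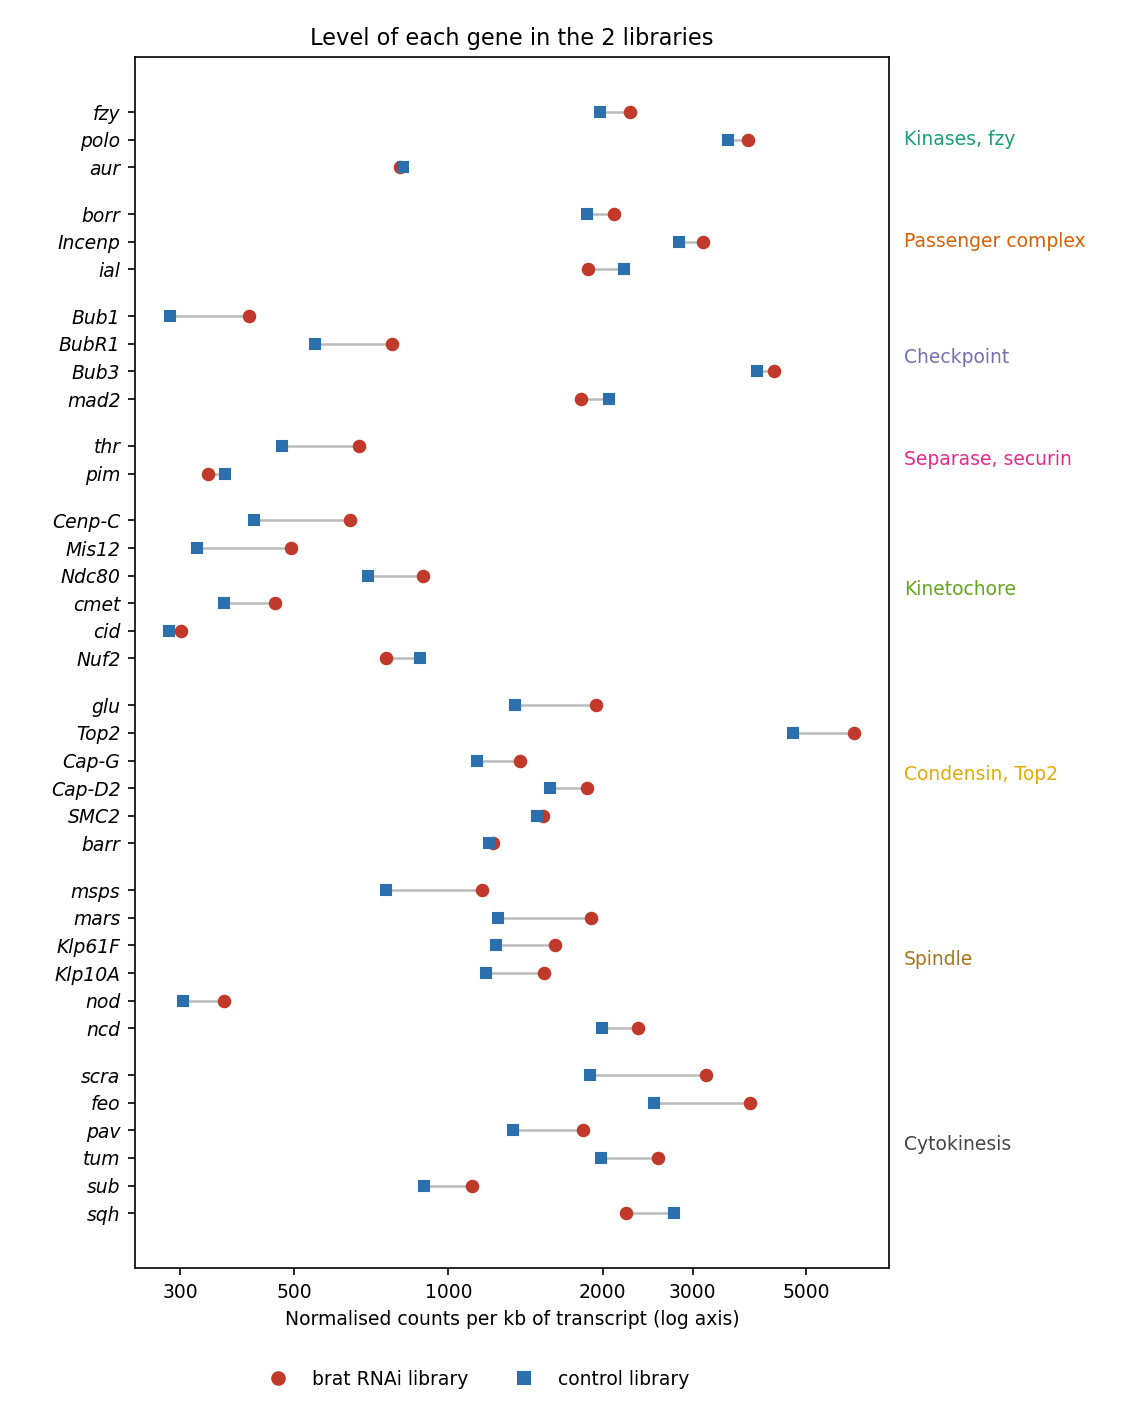
Normalised counts per kb of transcript, on a log axis, for each gene in the brat RNAi library (red circles) and the control library (blue squares). Top2 (6206 in the brat RNAi library and 4717 in the control library) is the highest and cid (301 and 285) the lowest; the red circle lies right of the blue square for 30 of the 36 genes.

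Genes of spindle motors and microtubule binders were all above 0, with a median of 0.38. Mini spindles (msps), a microtubule polymerase, had 8685 normalised counts in the brat RNAi library and 5627 in the control library, at 0.63 (0.58 to 0.67). Mars, a relative of the spindle protein HURP, had 7006 in the brat RNAi library and 4613 in the control library, at 0.60 (0.55 to 0.66). Exons of both genes overlap another gene on the opposite strand, CG10185 for msps and drk for mars. Corrected, msps was at 0.18 and mars at 0.25.

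The kinesins of this group formed a narrow band. The bipolar kinesin-5 motor Klp61F, which pushes spindle poles apart, had 6251 normalised counts in the brat RNAi library and 4794 in the control library, at 0.38 (0.33 to 0.44). Klp10A, a kinesin-13 that shortens microtubules at their ends, had 6790 in the brat RNAi library and 5229 in the control library, also at 0.38 (0.32 to 0.43). The chromokinesin nod had 861 in the brat RNAi library and 718 in the control library, at 0.26 (0.12 to 0.41). The minus-end motor ncd had 5946 in the brat RNAi library and 5042 in the control library, at 0.24 (0.18 to 0.29). After correction Klp61F, Klp10A and ncd were at 0.03, 0.02 and 0.00, the level of other genes of their length and abundance, and nod was at 0.21.

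Genes of the central spindle and cytokinesis included the highest and the lowest ratio of the 36. Anillin (scra), the scaffold of the contractile ring, had 13225 normalised counts in the brat RNAi library and 7855 in the control library, which is 1.68-fold and a log2 ratio of 0.75 (0.71 to 0.79). Fascetto (feo), the PRC1 protein that bundles antiparallel microtubules, had 9407 in the brat RNAi library and 6113 in the control library, at 0.62 (0.58 to 0.67). Both kept a distance from genes of like length and level, at 0.40 and 0.38 after correction. Scra was also the single gene of the 36 that was 1.5-fold higher with total count and with upper quartile scaling.

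Centralspindlin, the kinesin and GTPase-activating protein complex that marks the division plane, was higher in both parts. Pavarotti (pav) had 5874 normalised counts in the brat RNAi library and 4296 in the control library, at 0.45 (0.39 to 0.51). Tumbleweed (tum) had 6045 in the brat RNAi library and 4681 in the control library, at 0.37 (0.31 to 0.42). The partners differed by 0.08 (0.00 to 0.16) before correction and stood at 0.20 each after it. Subito (sub), a kinesin-6 of the spindle midzone with a known role in female meiosis, had 2543 in the brat RNAi library and 2051 in the control library, at 0.31 (0.23 to 0.40) and 0.16 after correction.

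The regulatory light chain of non-muscle myosin II, spaghetti squash (sqh), had the lowest ratio, -0.31 (-0.39 to -0.24). Its normalised counts were 2436 in the brat RNAi library and 3028 in the control library, and its corrected ratio was -0.24. Myosin is used outside mitosis as well. The heavy chain zip, from the list of other cytokinesis genes, lay on the other side, with 16956 normalised counts in the brat RNAi library and 11238 in the control library, at 0.59 (0.56 to 0.63). No transcript length was matched for zip, so it has no corrected value. Rok, the kinase that phosphorylates the light chain, had the highest ratio of that list, 0.70 (0.63 to 0.77), with 4193 normalised counts in the brat RNAi library and 2588 in the control library, and was at 0.25 after correction.

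Before correction, a wider set of genes from the same pathways lay closer to the background. Of 93 listed genes 91 were measured, with a median log2 ratio of 0.08. Of the 91, 57 were above 0 (62.6%), against 50.4% of all measured genes and 56.7% of those with sums of at least 200. The counting interval lay above 0 for 42 of them (46.2%) and below 0 for 19 (20.9%), against 30.7% and 24.3% of all measured genes. Among genes with sums of at least 200 these shares were 39.5% and 24.2%. After correction their median was -0.08, with 31 of 90 genes above 0, against 4499 of all 9075 corrected genes. The corrected interval lay above 0 for 19 and below 0 for 37, against 24.5% and 23.4% of all corrected genes. Among the 6745 corrected genes with sums of at least 200, it lay above 0 for 1957 and below 0 for 1809. Of the 91 genes, 8 were 1.5-fold higher before correction (8.79%, against 5.93% of all measured genes) and 1 was 1.5-fold lower, against 8.32%. Among genes with sums of at least 200 these shares were 6.35% and 3.2%. The difference between these genes and the 36 was not tested.

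Among the other kinetochore and checkpoint genes, 15 in number with a median of 0.07, Zwilch, a subunit of the complex that recruits dynein to kinetochores, was highest at 0.61 (0.50 to 0.72), and 0.48 after correction. Among 20 measured APC/C and mitotic regulator genes, with a median of 0.05, Greatwall kinase (gwl), which restrains the phosphatase PP2A in mitosis, was highest at 0.62 (0.52 to 0.71), with 2350 normalised counts in the brat RNAi library and 1534 in the control library. The APC/C subunit gene Apc7 was lowest, on 13 raw counts in the brat RNAi library and 34 in the control library, at -1.13 (-2.17 to -0.17). Before correction Apc7 was the single gene of the 91 beyond 2-fold, and lmg had no count in either library. After correction gwl was at 0.40 and Apc7 at -0.71. Of 13 other condensin and cohesin genes, with a median of 0.13, the cohesin acetyltransferase gene eco was highest at 0.70 (0.62 to 0.77), and san was lowest at -0.20 (-0.34 to -0.07). Cap-H2 and Cap-D3, subunits of condensin II, were at 0.19 and 0.01. After correction eco was at 0.48, san at -0.03, Cap-H2 at -0.09 and Cap-D3 at -0.28.

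The 23 measured other spindle genes had a median of 0.20. Map205, a microtubule-associated protein that binds Polo, was highest at 0.83 (0.77 to 0.89), with 6478 normalised counts in the brat RNAi library and 3642 in the control library, and 0.48 after correction. The kinesin gene neb (Klp38B) at 0.64 and asp, which focuses spindle poles, at 0.61 were the other genes of this list beyond 1.5-fold. Corrected, neb was at 0.42 and asp at 0.16. The augmin-associated gene msd1 was lowest at -0.44 (-0.59 to -0.29), and at -0.26 after correction. The tubulin genes alphaTub84B and betaTub56D were at -0.11 and -0.12, and at -0.16 and -0.11 after correction. Klp59C, with 2 raw counts in the brat RNAi library and 3 in the control library, was too low to be measured. Of 20 other cytokinesis genes, with a median of -0.05, the cofilin gene tsr was lowest at -0.36 (-0.41 to -0.31), and at -0.24 after correction.

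The mitotic genes stood close to other proliferation genes. The median log2 ratio was 0.29 for the 36 genes, 0.25 for 11 genes of cyclins, Cdks and their switches, 0.39 for 15 DNA replication genes and 0.29 for 10 centrosome and centriole genes. After correction for length and level these medians were 0.14 for the mitotic genes, 0.02 for cyclins and Cdks, 0.16 for replication and 0.07 for centrosomes. The 8 neuroblast markers had a median of 0.45, with 7 of 8 above 0. After correction their median was 0.23, with 6 of 8 above 0. The exception before correction was ase, with 1353 normalised counts in the brat RNAi library and 1635 in the control library, at -0.27. After correction ase was at -0.39, and pros, at 0.18 before it, was at -0.27. The gene ase is counted in this list although Asense is absent from type II neuroblasts. The marker median was on the same side of 0 as that of the mitotic genes, and their part in the mitotic ratios was not tested.

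**Figure D4:**
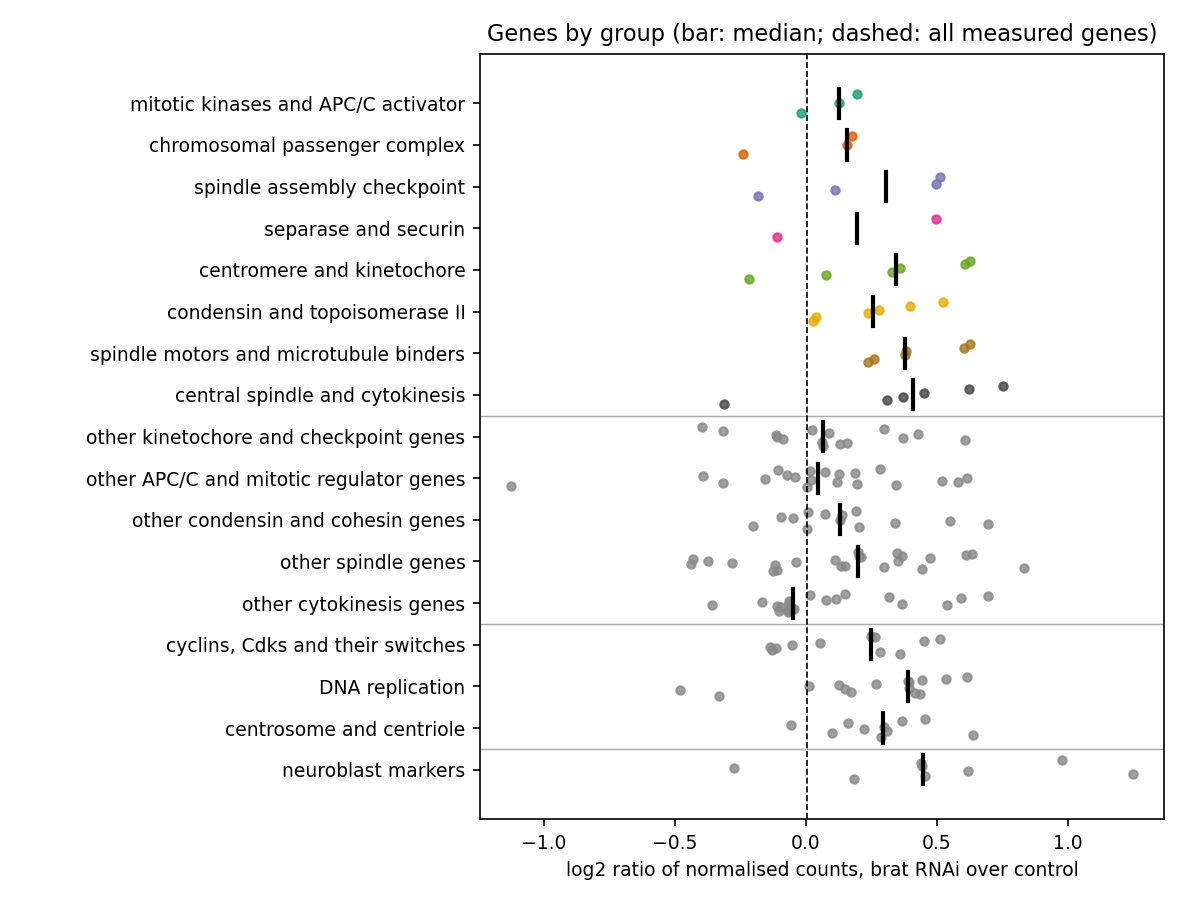
Log2 ratio, brat RNAi over control, of every measured gene (points) by functional group, with the group median as a black bar and the median of all measured genes as a dashed line. The coloured groups are the mitotic genes, whose medians run from 0.13 for the kinases to 0.41 for cytokinesis; the lists of other genes in the same pathways have medians of -0.05 to 0.20.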

How the data were processed

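For each of the 2 libraries the authors deposited raw gene-level counts (read pairs), and for the series a table of their comparison. HTSeq, DESeq 1.8.3, TopHat 1.4.1 and BWA 0.6.1 are named in the submitters' processing notes, with no role or order. Gene identifiers are of FlyBase r5.44, per the file headers. Per the file headers, that table holds size-factor normalised counts as a signal per library, a log2 fold change (control in the numerator) and an adjusted p-value, all computed by the authors. Its 10987 finite log2 values, turned round, equal those computed here within 1e-06.

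Counts in 5 categories that name no gene (27.2% of the brat RNAi table and 22.7% of the control table) stayed out of all sums. Counts were divided by median-of-ratios size factors, and ratios have exact (Clopper-Pearson) 95% intervals for counting error. Gaps between partner genes have a 95% log-normal interval from the odds ratio of their counts, and the partner pairs were chosen after the values were seen. A gene is called 1.5-fold or 2-fold apart when its ratio reaches that size and its interval excludes 0. Transcript lengths are medians from the BDGP6 annotation, which is not the build of the counts, so no coordinates are given. Of the 37 genes, 35 matched that annotation by identifier and 2 (Top2 and Cenp-C) by symbol, and 15 overlap an exon of another gene on the opposite strand. These 15 are sub, cmet, Nuf2, glu, Cap-D2, fzy, aur, thr, Bub3, mad2, msps, mars, Klp61F, nod and ncd. Alternatives were total count, upper quartile and TMM scaling (edgeR 4.0.16), other minimum counts and a correction by deciles of length and level. All 37 genes are named. From each list of other genes, the highest and lowest ratio and every gene 1.5-fold apart are named. Cap-H2, Cap-D3, Sse, the tubulins and the marker genes named were added after their values were seen. The 37 genes and all lists were chosen with earlier results of these data known. The computation was tested on simulated counts with Python 3.11.15 and scipy 1.17.1. No promoter or protein sequences are shown, and the promoter motif search planned was not run, since no sequence table was used here.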

Additional observations from a re-analysis of the deposited data

How the results depend on the processing

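No paired analysis was possible because each group holds 1 library. With total count scaling, which lowers every log2 ratio by 0.14, the median of the 36 genes was 0.15, with 1 gene 1.5-fold higher and 8 intervals below 0. With upper quartile scaling, which lowers them by 0.16, those values were 0.13, 1 and 8. The median of all measured genes went down by the same amounts, to -0.14 and -0.16, so the distance of the mitotic genes from it was unchanged. The share of all measured genes with an interval below 0 was not computed for these scalings. With TMM scaling the median was 0.27 and 4 genes were 1.5-fold higher, against 5.28% of all measured genes. Correcting for length and level gave a median of 0.14, with 1 gene 1.5-fold higher and 10 intervals below 0; the correction changed the sign of 10 genes, total count scaling of 5 and upper quartile scaling of 6. The 15 genes that overlap an opposite-strand gene were also left out, a choice made after the values were seen. The 21 genes left had a median of 0.36, against 0.29 for the 36. Of these 21, the interval lay above 0 for 15 and below 0 for 2, which are counts out of fewer genes. No gene was 2-fold apart under any of these settings, and the minimum count changed nothing. The cause of the trend with length was not tested. Counting error is small at these depths (the fewest counts, for cid, sum to 596), but spread between animals or libraries is not measured.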
